A study of Mus musculus with 3 samples.

Results

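The genes described here are 10 mouse genes used as markers of corticospinal motor neurons, namely Etv1, Ldb2, Tcerg1l, Crim1, Npr3, Diaph3, Pcp4, S100a10, Pex5l and Crym. Every peak of 3 ATAC-seq libraries lying in the mm10 body of one of these genes, or within 10 kb of it on either side, was taken. Overlapping peaks of different libraries were merged into accessible regions, which gave 221 regions at the 10 genes out of 204313 in all. They held 118 peaks of the library of corticospinal motor neurons (CSMN), 155 peaks of the first library of callosal projection neurons (CPN 1) and 177 peaks of the second (CPN 2).

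In ATAC-seq a transposase cuts and tags DNA that is not packed away in chromatin, so that peaks mark accessible stretches. The CSMN library (n = 1) and both CPN libraries (n = 2) came from viable brain cells sorted by FACS, with 50000 cells per sort. No genotype, treatment, age, strain or label used for sorting was given in the sources used here, and nothing in the labels sets the groups apart other than the cell type. The lists held 98067 peaks in CSMN 1, 134018 in CPN 1 and 158779 in CPN 2, and the read depth behind them is unknown. With 1 CSMN library the cell types were not compared by a test, and the difference between CPN 1 and CPN 2 stands in for the spread between replicates.

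Corticospinal motor neurons lie in layer V of the cerebral cortex and send their axons through the corticospinal tract to the spinal cord, where they take part in voluntary movement. Callosal projection neurons connect the hemispheres through the corpus callosum. The 10 genes are known as markers because their RNA is enriched in subcerebral or layer V neurons, and most encode working parts of the cell such as receptors, actin regulators, calcium-signalling proteins and channel subunits. RNA was not measured in these libraries, so each gene is described by its chromatin alone.

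Whether a peak sits at the start of a gene depends on the start site, and RefSeq (GRCm38.p6, the assembly named mm10) gave start sites and promoter sequence for 6 of the 10 genes. The windows run from 250 bases before the start to 50 bases after it. The Diaph3, Pcp4 and Npr3 windows are shown because those genes have the strongest start peak, one of middling strength and one of the weakest, and both Etv1 windows because only the first lay under a peak. Capitals mark matches, on either strand, to TATAAA, a form of the TATA box, to CCAAT, the box known for binding NF-Y, and to GGGCGG, a core that Sp1 binds, and no match printed here overlaps another. Over 21263 windows of protein-coding genes, 12.6% held TATAAA, 38.2% held CCAAT and 46.2% held GGGCGG.
Diaph3, chr14:87141175-87141474, minus strand: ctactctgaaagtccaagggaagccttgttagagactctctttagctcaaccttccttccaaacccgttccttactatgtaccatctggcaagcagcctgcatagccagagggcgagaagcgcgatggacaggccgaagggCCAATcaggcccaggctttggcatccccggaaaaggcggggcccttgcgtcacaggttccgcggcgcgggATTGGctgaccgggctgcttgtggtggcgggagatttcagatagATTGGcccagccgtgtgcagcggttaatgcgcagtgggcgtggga
Pcp4, chr16:96467356-96467655, plus strand: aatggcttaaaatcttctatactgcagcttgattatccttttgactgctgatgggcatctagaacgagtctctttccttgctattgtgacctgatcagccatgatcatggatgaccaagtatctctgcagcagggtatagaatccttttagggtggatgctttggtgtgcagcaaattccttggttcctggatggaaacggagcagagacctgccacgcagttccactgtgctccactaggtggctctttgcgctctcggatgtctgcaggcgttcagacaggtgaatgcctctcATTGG
Npr3, chr15:11907322-11907621, minus strand: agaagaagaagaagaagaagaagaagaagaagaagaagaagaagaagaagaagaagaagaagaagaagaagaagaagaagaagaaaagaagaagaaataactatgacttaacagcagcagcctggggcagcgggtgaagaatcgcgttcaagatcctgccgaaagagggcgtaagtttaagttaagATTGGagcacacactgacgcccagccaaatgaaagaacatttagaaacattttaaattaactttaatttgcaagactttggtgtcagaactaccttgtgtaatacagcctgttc
Etv1 first start, chr12:38779832-38780131, plus strand: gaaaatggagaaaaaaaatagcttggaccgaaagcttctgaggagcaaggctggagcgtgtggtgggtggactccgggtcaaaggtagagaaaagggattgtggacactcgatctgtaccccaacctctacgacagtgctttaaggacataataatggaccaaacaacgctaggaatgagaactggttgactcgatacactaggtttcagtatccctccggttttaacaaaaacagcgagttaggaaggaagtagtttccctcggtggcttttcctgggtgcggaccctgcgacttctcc
Etv1 second start, chr12:38783461-38783760, plus strand: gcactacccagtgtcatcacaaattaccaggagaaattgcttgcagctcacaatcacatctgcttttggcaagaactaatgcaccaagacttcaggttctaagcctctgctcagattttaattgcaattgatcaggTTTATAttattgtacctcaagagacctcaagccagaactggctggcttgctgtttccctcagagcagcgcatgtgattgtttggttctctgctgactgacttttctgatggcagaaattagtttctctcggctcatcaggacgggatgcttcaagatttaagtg

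The windows differ widely in base composition. GC content was 76% at Crim1, 73% at Tcerg1l, 59.3% at Diaph3, 48.7% at Pcp4 and at the first Etv1 start, 44% at the second Etv1 start and 39% at Npr3, against a median of 56.3% over all windows. The CpG count over its expectation was 0.855 at Crim1 and 0.880 at Tcerg1l, against 0.207 at the second Etv1 start and a median of 0.567. All 300 bases of the Diaph3 window lay under a peak in every library. In the Npr3 window, which opens with a purine-rich repeat, peaks covered 179 bases in CSMN 1, 181 in CPN 1 and 0 in CPN 2, whose nearest peak lay 99 bp from the start. For Crym, Ldb2, S100a10 and Pex5l no strand was at hand, and a peak within 1 kb of either end of the gene was taken as a start peak.

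Start peaks of marker genes of several brain cell types were counted in CSMN 1, CPN 1 and CPN 2. Of 7 excitatory neuron genes 5, 6 and 7 had one, Slc17a7 and Rbfox3 lacking it in CSMN 1 and Slc17a7 in CPN 1. The counts were 6 in each library for 6 interneuron genes, 4 in each for 6 astrocyte genes and 5 in each for 5 endothelial genes. For 6 oligodendrocyte genes they were 4, 5 and 5, and for 6 microglial genes 1, 3 and 2. Start peaks at marker genes of other cell types were thus present in every library. Of all protein-coding genes, 65.0% had a start peak in all 3 libraries. Whether other cells were in the sorts was not tested.

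All 10 genes had a start peak in all 3 libraries, where 65.0% of the 21887 protein-coding genes did when counted the same way. This was not particular to them, since all 14 genes of a list of callosal neuron effectors had one in each library. Of 11 other genes of subcerebral neurons, 9 did. The fold enrichment at the summit, the authors' value for each peak, orders the starts within a list by their strongest peak within 1 kb. It was highest at Diaph3 in each library, with a fold of 16.9 in CSMN 1, 24.3 in CPN 1 and 24.5 in CPN 2, which is stronger than 99.5%, 99.4% and 99.4% of the peaks of those lists. Pex5l followed with 12.9 in CSMN 1, 19.9 in CPN 1 and 17.1 in CPN 2. At the low end, Npr3 had 3.42 in CSMN 1, 3.83 in CPN 1 and 4.05 in CPN 2, and Crym had 2.96, 3.15 and 2.44 in the same order of libraries. The same 2 genes therefore opened and the same 2 closed the order in every list, while the genes between them changed places. Folds were lower in the CSMN list as a whole, with a median of 2.86 in CSMN 1, 3.82 in CPN 1 and 3.68 in CPN 2, so a fold is not compared between lists.

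**Figure D1:**
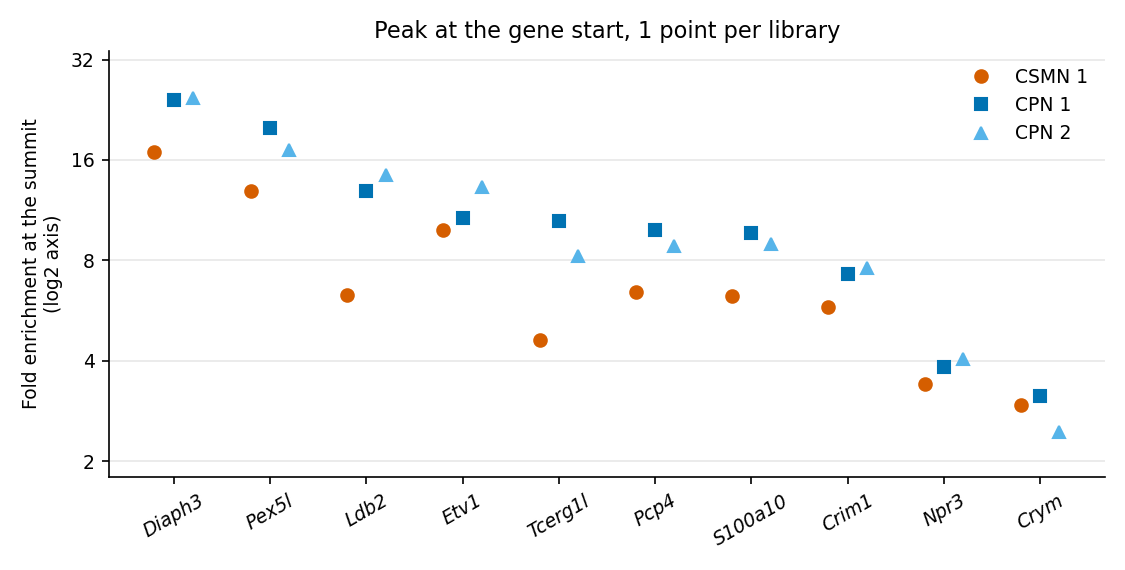
Fold enrichment at the summit of the strongest peak within 1 kb of the gene start, on a log2 axis, with 1 point for each of the libraries CSMN 1, CPN 1 and CPN 2 and genes ordered by CPN 1. Diaph3 and Pex5l lie at the top and Npr3 and Crym at the bottom in all 3 libraries, and the CSMN 1 point is the lowest of the 3 at every gene except Crym. Folds were lower in the CSMN list as a whole, so the height of the CSMN 1 points does not show weaker starts in CSMN.

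Most regions at the 10 genes were either common to all libraries or seen in CPN alone. A peak in all 3 libraries was present in 75 of 221 regions (33.9%, 95% Wilson interval 28.0 to 40.4), against 32.4% of the 134402 regions at all protein-coding genes. A peak in CSMN and in neither CPN library, termed CSMN-only, was present in 21 regions (9.50%, 6.30 to 14.1), against 9.41% at all genes. A peak in both CPN libraries and not in CSMN, termed CPN-only, was present in 46 regions (20.8%, 16.0 to 26.6), against 19.5% at all genes. Intervals cover counting error only, and in sorted pools fewer cells with an open region and less opening per cell cannot be told apart. Of the regions in these last classes, CSMN-only ones made up 31.3% (21.5 to 43.2), against 32.5% at all genes. The share at the corticospinal markers thus differed from that at all genes by less than its counting interval. By gene, CPN-only regions outnumbered CSMN-only ones at 6 of the 10 genes and were fewer at 1 (S100a10). The counts were equal at Diaph3, Npr3 and Pex5l. Regions at all genes leaned the same way, with 26272 CPN-only and 12651 CSMN-only. The number of CSMN-only regions of a gene less that of its CPN-only regions is called its margin.

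That balance depended on the length of the lists. With each list cut to the 98067 peaks of highest −log10 p, 37 regions at the 10 genes were CSMN-only and 24 were CPN-only, so that the first made up 60.7%, where all genes gave 53.7%. When peaks with a −log10 q under 5 were left out (the stricter q), 7 were CSMN-only and 43 CPN-only, a share of 14%, where all genes gave 8.34%. Without CPN 1 there were 31 CSMN-only and 83 CPN-only regions, a share of 27.2%, where all genes gave 21.4%. Without CPN 2 there were 33 CSMN-only and 70 CPN-only regions, a share of 32.0%, where all genes gave 26.2%. In both cases a region needs to be present or absent in 1 CPN list alone, so both counts are larger by construction. The direction of the balance at the 10 genes thus turned with the length of the lists, as it did at all genes.

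The regions of each class differed in strength and width. CSMN-only regions had folds of 2.06 to 3.21 with a median of 2.3, and 2 of 21 (9.52%) were strong, meaning a −log10 q of 5 or more for the strongest peak of each library present, against 11.0% of CSMN-only regions at all genes. CPN-only regions had a lower of the 2 CPN folds between 2.01 and 6.01 with a median of 3.23, and 25 of 46 (54.3%) were strong, against 59.6% at all genes. Median widths were 175 bp for CSMN-only, 294 bp for CPN-only and 471 bp for regions in all libraries. The 2 strong CSMN-only regions lay in Ldb2 and Pex5l. Of the 221 regions, 198 lay in a gene body and 23 in a flank.

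Regions that joined CSMN with 1 of the CPN libraries were more frequent than at genes in general. There were 9 with CPN 1 and 12 with CPN 2, together 9.50% of the regions (6.30 to 14.1), against 4.03% at all genes. Regions of CPN 2 alone numbered 34 (15.4%, 11.2 to 20.7), against 21.5% at all genes. Regions of CPN 1 alone numbered 24 (10.9%, 7.41 to 15.6), an interval that holds the 13.2% at all genes. These shares were compared after their values were seen.

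**Figure D2:**
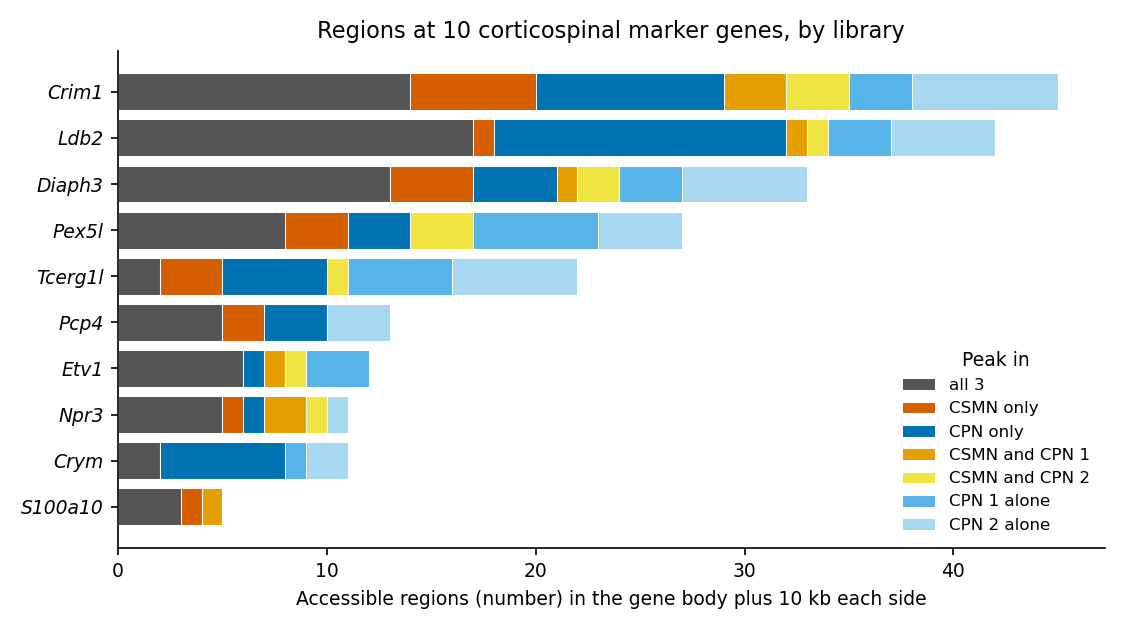
Number of accessible regions at each of the 10 genes (horizontal axis, gene body plus 10 kb each side), split by the libraries with a peak in the region. CSMN-only regions (dark orange) outnumber CPN-only regions (dark blue) at S100a10 alone, and the widest margins the other way are at Ldb2, with 1 CSMN-only against 14 CPN-only regions, and at Crym, with 0 CSMN-only and 6 CPN-only regions.

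Within the regions present in all 3 libraries, each library was ranked by its own folds over the 62435 such regions of the genome, as a percentile. A region was said to rank higher in CSMN where its CSMN percentile exceeded both CPN percentiles by more than the gap between CPN 1 and CPN 2, and lower in the mirrored case. Of the 75 shared regions at the 10 genes, 21 ranked higher in CSMN (28.0%), against 27.2% at all genes, and 18 ranked lower (24.0%), against 27.3%. The other 36 met neither condition. The median CSMN percentile minus CPN mean percentile was 2.68 points at the 10 genes and 0.242 points at all genes, with a range at the 10 genes of −47.1 to 38.9 points. Without CPN 1, where any difference counts, 46 ranked higher (52.9%) and 41 lower (47.1%), against 50.8% and 49.1% at all genes. Without CPN 2, 49 ranked higher (58.3%) and 35 lower (41.7%), against 51.0% and 49.0% at all genes. With both CPN libraries kept and regions ranked by −log10 p instead of fold, 27 ranked higher (36.0%) and 17 lower (22.7%). All genes gave 25.5% and 30.9% under that ranking. Across the 75 shared regions, Spearman's rho of the folds was 0.728 between CSMN 1 and CPN 1, 0.713 between CSMN 1 and CPN 2, and 0.895 between CPN 1 and CPN 2. Over all genes it was 0.857, 0.844 and 0.956, given as a description since regions of a library share its depth and background.

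Ranks also differed at the marker genes of other brain cells. Of the shared regions at astrocyte genes 48.6% ranked higher in CSMN and 17.1% lower, at interneuron genes 40.9% and 9.09%, and at excitatory neuron genes 55.6% and 11.1%. At oligodendrocyte genes 23.8% ranked higher and 28.6% lower, at microglial genes 18.2% each way, and at endothelial genes 22.2% and 33.3%. These lists hold between 11 and 36 shared regions each. The part of other cell types in the ranks of the 10 genes, including the higher ranks at Npr3 and Crim1 described below, was not tested.

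**Figure D3:**
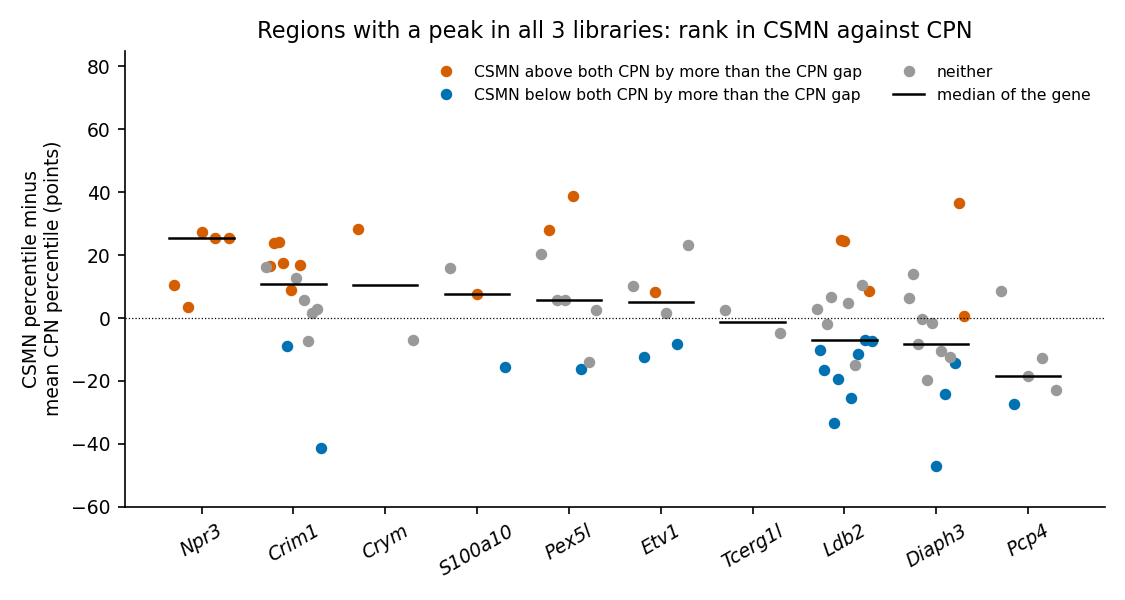
Each point is 1 region with a peak in all 3 libraries, and the vertical axis gives its percentile in CSMN 1 minus the mean of its CPN 1 and CPN 2 percentiles, in points, with genes ordered by their median (black bar). All 5 Npr3 points lie above 0, from 3.40 to 27.5, whereas the Tcerg1l, Ldb2, Diaph3 and Pcp4 medians lie below 0.

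Etv1, also known as Er81, encodes an ETS-family transcription factor long used as a marker of layer V neurons. Its window (body at chr12:38780082-38870483) held 12 regions, of which 6 were in all libraries, 0 were CSMN-only and 1 was CPN-only. The first start lay in a region that spanned chr12:38778266-38780622, with a fold of 9.87 in CSMN 1, 10.7 in CPN 1 and 13.2 in CPN 2. These folds are those of the strongest peak of the region, whose summit lay 1288 bp from the start in each library. The CPN peaks over the start window itself had folds of 8.81 in CPN 1 and 10.9 in CPN 2. Its percentile of 91.0 in CSMN 1 lay above 77.5 in CPN 1 and 84.3 in CPN 2, but its excess over CPN 2 was just under the gap between the CPN libraries, so it was not counted as higher. The second start, at 38783711, had no peak nearby, the nearest lying 3089 bp away in CSMN 1 and 3109 bp away in both CPN libraries. The CPN-only region, chr12:38836143-38836573, had folds of 4.63 in CPN 1 and 4.97 in CPN 2. The margin of −1 was 0 without CPN 1 or with lists of equal length, and −3 without CPN 2. Among shared regions, 1 ranked higher in CSMN and 2 ranked lower. The lowest, chr12:38788553-38788901, had a fold of 3.82 in CSMN 1, 8.67 in CPN 1 and 8.47 in CPN 2, a difference of −12.4 points.

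Ldb2 encodes a cofactor that binds LIM-homeodomain and other LIM-domain proteins and bridges transcription complexes. Of the 10 genes it had the widest margin of CPN-only over CSMN-only regions. Its 42 regions (body at chr5:44435955-44799759) included 17 in all libraries, 1 CSMN-only region and 14 that were CPN-only, 7 of these being strong. The peaks covered 6326 bp in CSMN 1, 11893 bp in CPN 1 and 9931 bp in CPN 2, at mean widths of 316, 340 and 255 bp. The whole lists differed in the same order, covering 39.7 Mb in CSMN 1, 54.7 Mb in CPN 1 and 47.2 Mb in CPN 2. The margin was −13 regions, −5 with lists of equal length and −9 with the stricter q, and it stayed negative without either CPN library (−19 and −15). Of the 21887 genes, 243 (1.11%) held at least 14 CPN-only regions, a threshold chosen after the Ldb2 count was seen. That count makes no allowance for gene length, and Ldb2 spans 364 kb where the median gene spans 17.2 kb. Its window held 10.9 regions per 100 kb, more than 52.0% of genes.

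The strongest CPN-only region of Ldb2 by its lower fold, chr5:44759227-44759525, had folds of 6.01 in CPN 1 and 7.89 in CPN 2, and the CSMN-only region, chr5:44676468-44676640, had a fold of 2.95 in CSMN 1. Of the 17 shared regions 3 ranked higher in CSMN and 8 ranked lower, where at all genes 27.2% ranked higher and 27.3% lower. The region at the gene end at 44799759 was among the lower ones, with a fold of 6.28 in CSMN 1, 12.9 in CPN 1 and 14.4 in CPN 2, or percentiles of 78.3, 84.4 and 86.9. The lowest, chr5:44579929-44580499, stood at percentile 8.11 in CSMN 1, 42.2 in CPN 1 and 40.9 in CPN 2. Among those that ranked higher was chr5:44629103-44629495, at percentile 60.8 in CSMN 1, 38.1 in CPN 1 and 33.9 in CPN 2. Ldb2 thus held regions that differed in both directions, with the lower ones in the majority of those that differed. With the stricter q, 5 of 13 shared regions ranked lower.

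Tcerg1l had 22 regions (body at chr7:138208972-138397730), and only 2 were in all libraries, 3 were CSMN-only and 5 CPN-only. The margin was −2 regions, and it turned to 2 with lists of equal length and widened to −8 without CPN 1 and −6 without CPN 2. Both shared regions stood between their CPN percentiles. The region at the start, chr7:138397313-138398913, had a fold of 4.61 in CSMN 1, 10.5 in CPN 1 and 8.27 in CPN 2, or percentiles of 65.4, 76.6 and 64.0. The summits with these folds lay 825 bp from the start in CSMN 1, 903 bp in CPN 1 and 852 bp in CPN 2. In CPN 2 the peak over the start window was another one, with a fold of 4.09. A CSMN-only region with a fold of 2.06, chr7:138396634-138396766, lay 964 bp from the start. That fold was the lowest of the 21 CSMN-only regions at the 10 genes.

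Crim1 encodes a transmembrane protein with cysteine-rich repeats that binds bone morphogenetic proteins, and in mice it is known for a role in guiding corticospinal axons to the thoracolumbar cord. With 45 regions (body at chr17:78200233-78376592) it held the most of the 10 genes, or 22.9 per 100 kb of window, more than 88.8% of genes. There were 14 regions in all libraries, 6 CSMN-only and 9 CPN-only. None of the CSMN-only regions was strong, with folds up to 2.52, and 6 of the CPN-only regions were. The margin of −3 turned to 3 with lists of equal length, and was −7 without CPN 1 and −3 without CPN 2.

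Among the 14 shared regions of Crim1, 6 ranked higher in CSMN and 2 lower, where at all genes 27.2% ranked higher and 27.3% lower. Their median difference was 10.7 points. The start region, chr17:78199586-78201609, was one of the higher ones, with a fold of 5.79 in CSMN 1, 7.26 in CPN 1 and 7.58 in CPN 2, or percentiles of 75.3, 58.3 and 59.1. The highest, chr17:78224022-78224323, lay 23774 bp into the gene and stood at percentile 64.9 in CSMN 1, 46.8 in CPN 1 and 34.7 in CPN 2. Far downstream, 168177 bp from the start, chr17:78368425-78368993 went the other way, with a fold of 2.50 in CSMN 1, 6.67 in CPN 1 and 7.25 in CPN 2 and a difference of −41.2 points. The higher regions lay at the start and in the first part of the gene, within 72817 bp of the start. The other lower region, chr17:78237973-78238393, lay among them, 37725 bp from the start, with a difference of −9.01 points. The largest lower one lay near the far end of the gene. At that end 4 regions also lay in the neighbouring gene Fez2.

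Npr3 encodes the natriuretic peptide clearance receptor, which takes up and removes natriuretic peptides. It was the one gene of the 10 in which every shared region ranked higher in CSMN, though not under every setting, as given below. Its 11 regions (body at chr15:11839896-11907837) comprised 5 in all libraries, 1 CSMN-only, 1 CPN-only, 2 of CSMN and CPN 1, 1 of CSMN and CPN 2, and 1 of CPN 2 alone. The 5 shared regions differed by 3.40 to 27.5 points with a median of 25.4. The strongest, chr15:11903951-11905673, lay 1698 bp into the gene and had a fold of 4.45 in CSMN 1, 5.18 in CPN 1 and 4.98 in CPN 2, or percentiles of 63.5, 37.6 and 34.4. The start region, chr15:11907121-11907502, stood at percentile 45.9 in CSMN 1, 19.7 in CPN 1 and 20.8 in CPN 2. Upstream, chr15:11910008-11910155 had a fold of 3.18 in CSMN 1, 3.43 in CPN 1 and 3.64 in CPN 2, or percentiles of 39.3, 13.4 and 14.3. In each of these regions the CSMN percentile lay well above both CPN percentiles, which were close to each other.

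Of 1009 genes with exactly 5 shared regions, 7 (0.694%) had all 5 ranked higher in CSMN. Npr3 was singled out after its values were seen, so that share describes how often the pattern occurs and tests nothing. Its shared regions were weak to middling, with mean percentiles below 60, where 27.0 to 29.0% of regions at all genes ranked higher. With the stricter q or with lists of equal length 3 shared regions were left, and all 3 ranked higher. When peaks had to overlap by 50% of the shorter one, 4 of 5 ranked higher. Without CPN 1, or with flanks of 50 kb, 5 of 6 did, and without CPN 2, 7 of 7. The margin was 0, with −1 when no flank was counted, 5 under lists of equal length, 2 without CPN 1 and 1 without CPN 2.

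**Figure D4:**
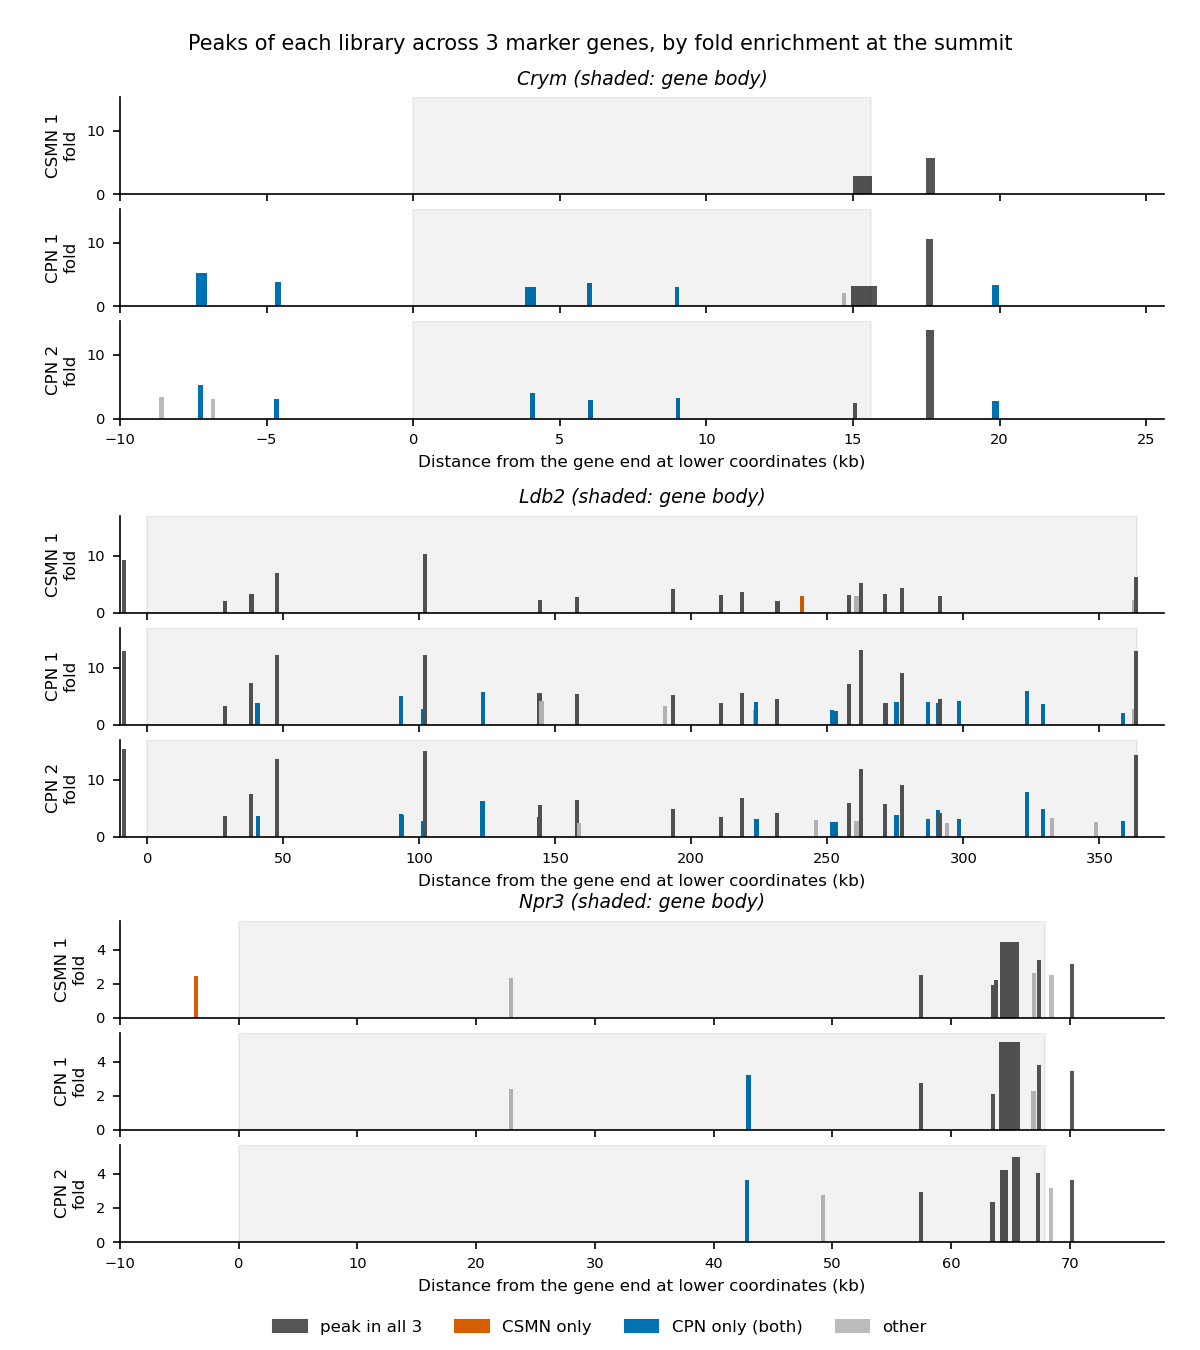
Peaks of CSMN 1, CPN 1 and CPN 2 across Crym, Ldb2 and Npr3, as bars whose height is the fold enrichment at the summit and whose position is the distance in kb from the gene end at lower coordinates. Colours give the class of the region, shading marks the gene body, and narrow peaks are drawn wider than to scale so that they can be seen. The Crym body holds 3 CPN-only regions and no CSMN-only region, Ldb2 is crossed by 14 CPN-only regions, and the Npr3 peaks gather at its high-coordinate end, where the gene starts, in every library.

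Diaph3 encodes a diaphanous-related formin, which nucleates and lengthens actin filaments. It is the longest of the genes (body at chr14:86655357-87141247, 486 kb) and had the sparsest regions, 33 in all or 6.52 per 100 kb of window, against a median gene of 10.4. There were 13 regions in all libraries, 4 CSMN-only and 4 CPN-only. The 4 CSMN-only regions had folds of 2.08 to 2.52 and none was strong, and 3 of the 4 CPN-only regions were strong. The margin of 0 became 5 with lists of equal length, −6 with the stricter q, −5 without CPN 1 and −1 without CPN 2. Besides the start, a second region was among the strongest of the 10 genes. It spanned chr14:86748687-86749342, 391882 bp from the start, with a fold of 14.2 in CSMN 1, 22.5 in CPN 1 and 23.3 in CPN 2, at percentiles of 97.6, 97.7 and 97.9.

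The shared regions of Diaph3 differed in rank in both directions. The lowest, chr14:86786970-86787423, had a fold of 2.43 in CSMN 1, 6.94 in CPN 1 and 7.89 in CPN 2, a difference of −47.1 points. The highest, chr14:87110975-87111680, had a fold of 3.21 in CSMN 1, 3.01 in CPN 1 and 2.34 in CPN 2, a difference of 36.5 points. In all 2 regions ranked higher, 3 lower and 8 neither. The 4 CSMN-only regions lay between 77295 and 203003 bp from the start, and the 4 CPN-only regions between 390535 and 462584 bp. These positions were singled out after they were seen, and with the margin they depend on the setting.

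Pcp4 encodes a small protein that binds calmodulin and changes its exchange of calcium. Its 13 regions (body at chr16:96467606-96525793) included 5 in all libraries, 2 CSMN-only and 3 CPN-only. The start region, chr16:96467458-96467928, had a fold of 6.44 in CSMN 1, 9.87 in CPN 1 and 8.81 in CPN 2, or percentiles of 79.3, 74.1 and 67.4. Only 1133 bp further into the gene, chr16:96468739-96469089 ranked lower in CSMN, with a fold of 2.85 in CSMN 1, 7.1 in CPN 1 and 6.88 in CPN 2, a difference of −27.3 points. The other 3 shared regions also stood lower in CSMN, with differences of −22.9 to −12.8 points, without passing the margin set by the CPN gap. The best CPN-only region, chr16:96491639-96491895, had folds of 4.05 in CPN 1 and 3.94 in CPN 2, and the best CSMN-only one, chr16:96517696-96517870, a fold of 2.51. The margin of −1 was −4 without CPN 1 and 0 with lists of equal length.

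S100a10, or p11, encodes an S100 protein that pairs with annexin A2 and carries membrane proteins to the cell surface. It is the shortest of the genes (body at chr3:93555117-93564645), with 5 regions, of which 3 were in all libraries, 1 was CSMN-only and 0 were CPN-only. The CSMN-only region, chr3:93545122-93545318, had a fold of 2.24 and lay at the edge of the flank, 9799 bp from the gene, so that it dropped out when no flank was counted. With the stricter q the margin of 1 turned to −1. The region at the gene end at 93555117 ranked higher in CSMN, with a fold of 6.27 in CSMN 1, 9.69 in CPN 1 and 8.94 in CPN 2, or percentiles of 78.3, 73.2 and 68.1. Past the other end, chr3:93568654-93569226 ranked lower, with a fold of 2.78 in CSMN 1, 5.44 in CPN 1 and 5.70 in CPN 2.

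Pex5l, or TRIP8b, encodes an auxiliary subunit of HCN channels, which pass the hyperpolarisation-activated current of layer V dendrites. Its 27 regions (body at chr3:32947926-33143302) included 8 in all libraries, 3 CSMN-only and 3 CPN-only. The region at the gene end at 33143302 stood at percentile 96.3 in CSMN 1, 95.6 in CPN 1 and 91.6 in CPN 2, and its excess over CPN 1 was smaller than the CPN gap. A CSMN-only region, chr3:32992153-32992719, was strong, with a fold of 3.21, the highest of the 21. The largest difference in favour of CSMN at any of the 10 genes was at chr3:33074103-33075004, with a fold of 3.90 in CSMN 1, 3.47 in CPN 1 and 3.94 in CPN 2, or percentiles of 55.6, 14.0 and 19.4. In the same gene chr3:33089973-33090462 ranked lower, at percentile 63.7 in CSMN 1, 78.6 in CPN 1 and 81.1 in CPN 2. The margin of 0 became 3 with lists of equal length, −2 with the stricter q, −4 without CPN 1 and −3 without CPN 2.

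Crym encodes mu-crystallin, a cytosolic protein that binds thyroid hormone and a widely used marker of corticospinal neurons. Its 11 regions (body at chr7:120186380-120201989) included 2 in all libraries, 0 CSMN-only and 6 CPN-only. Of the 21887 genes, 209 (0.955%) had at least 6 CPN-only and no CSMN-only region, a pattern chosen after Crym was seen. That count makes no allowance for the number of regions, and the median gene held 4 regions of any class. The window was dense, with 30.9 regions per 100 kb, more than 97.9% of genes. It is also shared, since 6 of the 11 regions lay in neighbouring genes, 4 in Anks4b and 2 in Abca14, and 3 of the 6 CPN-only regions lay in the Crym body. Those 3 had folds of 3.01 to 3.70 in CPN 1 and 2.92 to 3.94 in CPN 2, and none was strong. The margin of −6 was −3 without flanks, and −1 both with the stricter q and with lists of equal length.

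At the Crym end at 120201989, chr7:120201305-120202195 was one of the weakest start regions yet ranked higher in CSMN. Its fold was 2.96 in CSMN 1, 3.15 in CPN 1 and 2.44 in CPN 2, or percentiles of 33.4, 9.48 and 0.768. The strongest region of the window, chr7:120203856-120204195, lay in Abca14, with a fold of 5.66 in CSMN 1, 10.7 in CPN 1 and 13.9 in CPN 2, or percentiles of 74.5, 77.3 and 85.8. Its CSMN percentile lay below both CPN percentiles, but its distance from CPN 1 was under the CPN gap, so it was not counted as lower. The best CPN-only region, chr7:120178987-120179332, lay in Anks4b, with folds of 5.32 in CPN 1 and 5.26 in CPN 2.

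The balance was set beside that of 2 other lists. At 11 other genes of subcerebral neurons, among them the regulators Fezf2 and Bcl11b, 38 regions were CSMN-only and 92 CPN-only, a CSMN-only share of 29.2% (22.1 to 37.6). At 14 effector genes known from callosal neurons 20 were CSMN-only and 75 CPN-only, a share of 21.1% (14.1 to 30.3). By gene, CPN-only regions outnumbered CSMN-only ones at 6 of the 11 and at 10 of the 14 genes. The 31.3% at the corticospinal markers was the highest of the 3 shares but lay below the 32.5% at all genes. The intervals of all 3 lists overlapped. Regions of all libraries ranked higher in CSMN in 27.6% and lower in 27.6% at the other subcerebral genes. At the callosal genes 22.2% ranked higher and 31.3% lower, and at all genes 27.2% and 27.3%.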

How the data were processed

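Peak lists of 1 CSMN and 2 CPN ATAC-seq libraries were analysed, each a separate sort called a biological replicate per the labels. The build was mm10, and the tools listed, with no role or order, were MACS2 2.2.7.1, BWA 0.7.17 and bedtools 2.29.2, per the submitters' processing notes. How reads were filtered, deduplicated and shifted and how peaks were called is not given in the sources used here. A list was taken as called on a single library, because its peak names carry 1 library's name. The ratio used here, a fold enrichment at each summit, and the −log10 p and −log10 q are the authors' deposited values. The deposited score was checked to equal 10 times the −log10 q, cut to a whole number, within 1 unit. The lowest −log10 q, 1.30 to 1.31, shows the threshold of the lists.

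From these lists, peaks overlapping by at least 1 bp were merged into regions with Python 3.11.15, numpy 2.4.6 and pandas 2.3.3. The merging, classing and ranking were tested on simulated peaks. A region belonged to a gene where it overlapped the gene body plus 10 kb each side. Gene positions and promoter windows came from RefSeq tables of GRCm38.p6, which held strands for 6 of the 10 genes and no exons, so exons and introns were not told apart. Shares carry 95% Wilson intervals (statsmodels 0.14.6). The regions named for a gene were drawn from its start region, its strongest region, its best CSMN-only and CPN-only regions and its shared regions with the largest rank difference in each direction. Not all of these are named for every gene, and a few others were singled out after their values were seen. The genes and lists were chosen with earlier results of these data known, and the backgrounds for Npr3, Crym and Ldb2 and the bands of mean percentile were chosen after their values were seen.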

Additional observations from a re-analysis of the deposited data

How the results depend on the processing

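CSMN-only regions made up 31.3% of the CSMN-only and CPN-only regions at the 10 genes, a share that became 60.7% with lists of equal length, where the weakest CPN peaks are removed by construction, and 14% with a −log10 q of at least 5. It was 27.1 to 37.8% under the other settings tried (summit in the window, no flank, flanks of 50 kb, joining peaks up to 500 bp apart, overlap of at least 50% of the shorter peak, without CPN replicate 1 or 2). At all genes the share under these settings was 21.4 to 35.6%. The 37.8% came with flanks of 50 kb, where all genes gave 33.5%. CSMN-only regions, 21 as reported, numbered 34 with flanks of 50 kb, 37 with lists of equal length, 7 with the stricter q, and 31 to 33 without a CPN replicate. CPN-only regions, 46 as reported, numbered 24 with lists of equal length and 70 to 83 without a CPN replicate. Regions in all libraries, 75 as reported, numbered 49 with the stricter q. Shared regions that ranked higher in CSMN, 21 as reported, numbered 35 with any margin, 12 with the stricter q and 46 to 49 without a CPN replicate, and those that ranked lower, 18 as reported, numbered 30, 11 and 35 to 41. With any margin 46.7% ranked higher and 40.0% lower, against 42.3% and 40.1% at all genes. With the stricter q 24.5% ranked higher and 22.4% lower, against 26.9% and 28.1%. Ranking by −log10 p gave 36.0% and 22.7%, against 25.5% and 30.9%. The margin turned at Crim1 to 3 and at Tcerg1l to 2 with lists of equal length, and at S100a10 to −1 with the stricter q. Of the margins of the 10 genes under 9 settings, 51 moved by no more than 1.5 times, 36 moved more and these 3 changed sign. Start peaks in all libraries were present at 9 or 10 of the 10 genes under every setting tried. Where no construction is named the cause was not tested. No paired analysis was possible because CSMN has 1 library and no test was made. The read depth is unknown, so a missing peak is not evidence of closed chromatin.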
